A study of Mus musculus with 28 samples.

Results

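The follicular helper genes Bcl6, Il21, Cxcr5, Icos, Sh2d1a, Cd40lg and Pou2af1 were followed across 28 RNA-seq libraries of sorted CD4+ T cells of the mouse small intestinal lamina propria. These 7 genes were given as a list of symbols, with no measured value in the rule, and all 7 were found among the 25124 genes of the deposited table. Values are TPM, the abundance of a transcript as a share of its library, here divided by the genomic span of the gene. The tests took in 12182 genes that reached 1 TPM in 6 or more libraries, and all 7 were among them. Of the 28 libraries, 28 held at least 1 TPM of Bcl6, Il21, Icos, Sh2d1a and Cd40lg, 24 held that much Cxcr5, and 7 held that much Pou2af1.

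Every mouse carried T-bet-ZsGreen, a fluorescent reporter of the transcription factor T-bet. The mice were either germ-free (GF), lacking microbes, or specific-pathogen-free (SPF), with an intact flora. Treated mice received aCD3, an antibody that binds the CD3 chains of the T cell receptor, and control mice an isotype antibody. SPF isotype and SPF aCD3 had 6 libraries each, 3 from females and 3 from males. GF isotype had 10, 5 of each sex, and GF aCD3 had 6, of which 1 was female and 5 were male. Cells were sorted as live, CD45+, CD90.2+, TCRb+ and CD4+, with no gate for follicular helper cells, and the lymphoid patches of the gut wall had been cut away beforehand. The age of the mice and the dose and timing of the antibody are not given in the sources used here. Names such as F1 and M3 give the sex and number of a library, and SPF values are listed in the order F1, F2, F3, M1, M2, M3. The labels do not say that replicates are separate animals, so p-values measure the spread between these libraries only.

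Follicular helper T cells are CD4+ T cells that enter B cell follicles and help B cells to form germinal centres, switch class and raise the affinity of their antibodies. Bcl6 is the transcription factor that commits a T cell to this fate, Cxcr5 is the chemokine receptor that leads it into the follicle, Icos and the adaptor SAP (gene Sh2d1a) sustain its contact with B cells, and CD40 ligand (Cd40lg) and interleukin 21 (Il21) carry the help. Several of these genes are not restricted to follicular helper cells: other activated effector T cells also carry Icos and CD40 ligand and release interleukin 21, and B cells carry Cxcr5 and use Pou2af1.

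Reads in genes ran from 6765532 to 17860615 per library. Cd4 lay between 166 and 275 TPM and Cd3e between 274 and 430 TPM in all 28 libraries, while Cd8a lay between 0.944 and 22 TPM in 27 of them and at 60 TPM in GF isotype M4. Within GF aCD3, libraries M1, M2 and M5 stood apart from F1, M3 and M4 in several of the genes below, so each of the 6 values is given. Their summed TPM of 10 proliferation genes was 451 in F1, 1530 in M1, 1804 in M2, 681 in M3, 496 in M4 and 1550 in M5, against 364 to 652 in GF isotype and 1212 to 1619 in SPF aCD3. Marker sums of other cell types also differed between these libraries. Their B and plasma cell sums were 33.2 TPM (M1), 30.0 TPM (M2) and 22.6 TPM (M5), below those of F1 (73.3 TPM), M3 (130 TPM) and M4 (78.7 TPM). Their epithelial sums, 7.0, 7.2 and 9.3 TPM in that order, were likewise below the 36.6, 13.2 and 37.1 TPM of the other libraries. Myeloid sums were higher in M1, M2 and M5 (125, 122 and 138 TPM) than in F1, M3 and M4 (102, 75.6 and 87.4 TPM). So were the sums of the 2 CD8 T cell markers, at 13.0, 9.59 and 12.8 TPM against 3.47, 5.53 and 7.56 TPM. That sum was mostly Cd8a, with a mean in GF aCD3 of 7.76 TPM against 0.901 TPM for Cd8b1. The part of cell division and of other cell types in the results below was not tested. The SPF libraries carry sample numbers 1 to 12 in the column names and the GF libraries 25 to 33 and 48 to 54, so colonisation and this numbering cannot be told apart.

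After aCD3, the 7 genes did not move as a block. In SPF mice 6 of 7 passed the test, where 64.8% of all genes tested did (14.2% higher, 50.7% lower): Il21, Cxcr5 and Icos rose while Cd40lg, Bcl6 and Sh2d1a fell. In GF mice 1 of 7 passed, Cd40lg, which was lower, where 7.08% of all genes did (4.61% lower). Differences are log2 fold changes on the log2(TPM + 1) scale from limma, fitted to the 28 libraries together with terms for group and sex, and p-values are Benjamini-Hochberg adjusted over the 12182 genes (threshold 0.05). In bulk RNA of sorted cells, fewer cells of a type and less RNA per cell cannot be told apart.

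**Figure D1:**
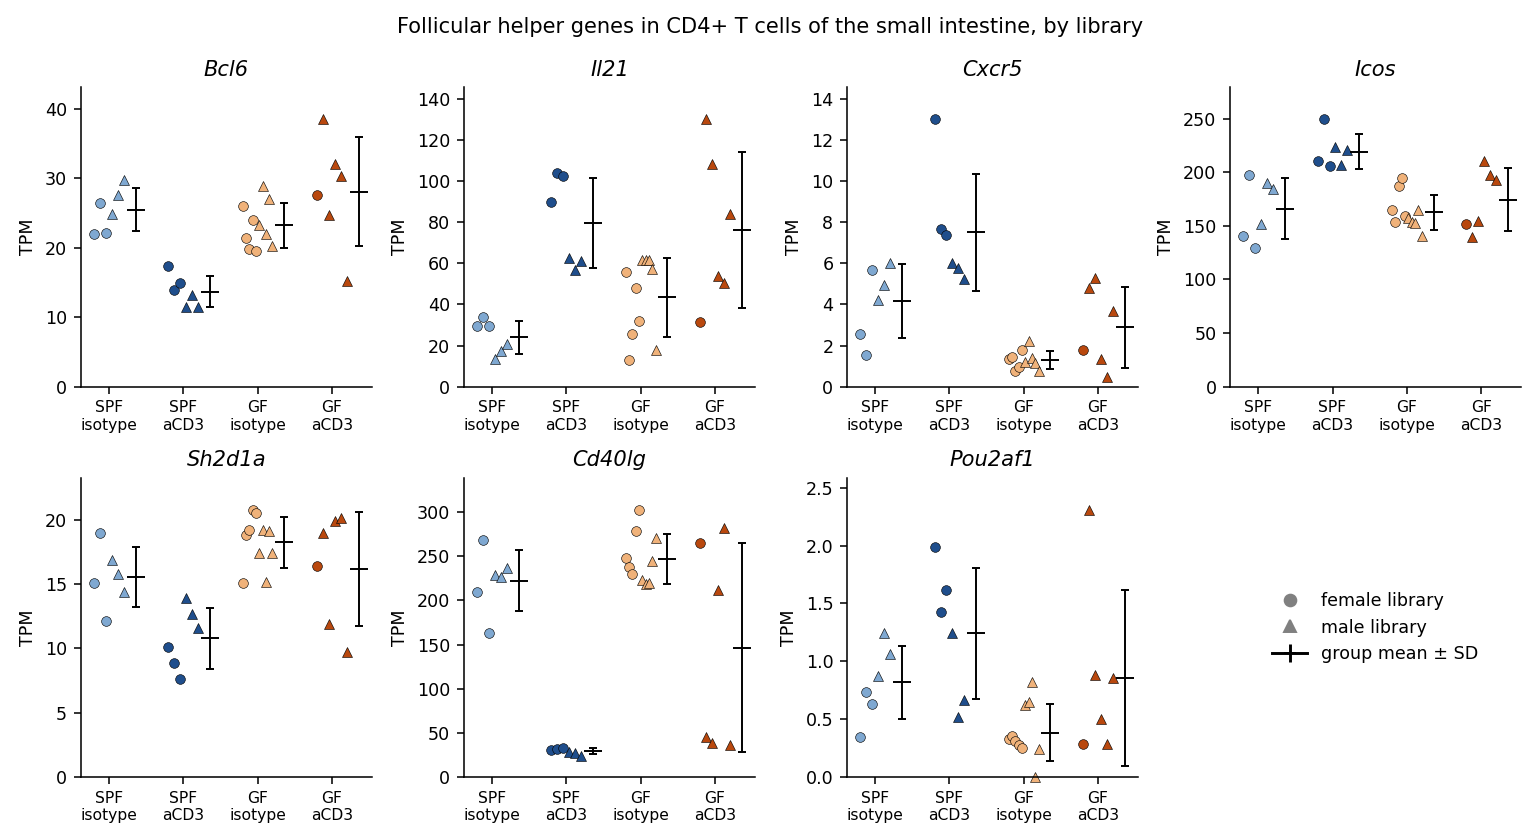
TPM of the 7 genes (linear axes from 0) in each of 28 libraries, grouped by colonisation and antibody; circles are female and triangles male libraries, and the bar beside each group is its mean ± SD. Cd40lg lies at 24.2 to 33.3 TPM in SPF aCD3 against 163 to 268 TPM in SPF isotype, and the 6 GF aCD3 libraries lie both near the isotype level and near the SPF aCD3 level.

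Bcl6, the master regulator, was measured over chr16:23965050-23981283 of mm10 (minus strand). It stood at 21.9, 26.5, 22.2, 24.9, 27.6 and 29.7 TPM in the SPF isotype libraries and at 17.3, 13.9, 14.9, 11.4, 13.2 and 11.4 TPM in the SPF aCD3 libraries. In TPM, every SPF aCD3 library was below every SPF isotype library. Means were 25.5 ± 3.07 (SD, n = 6) and 13.7 ± 2.25 TPM (SD, n = 6), a 1.86-fold lower level after aCD3. The log2 difference was -0.86 (SE 0.15, limma adjusted p = 4.12e-05). Under median of ratios scaling, which removes a shift shared by most genes, it was -0.46 (limma adjusted p = 0.00665).

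In GF mice no change of Bcl6 with aCD3 passed the test. GF isotype ran from 19.6 through a median of 22.6 to 28.9 TPM (mean 23.2 ± 3.22, SD, n = 10), and the GF aCD3 libraries held 27.7 (F1), 38.5 (M1), 24.7 (M2), 32.1 (M3), 30.3 (M4) and 15.3 TPM (M5). Of these, M1, M3 and M4 were above all 10 GF isotype libraries and M5 was below all of them. The GF difference was 0.22 (SE 0.14, limma adjusted p = 0.253, 95% interval -0.07 to 0.51). The aCD3 effect on Bcl6 differed between GF and SPF by 1.07 (SE 0.21, 95% interval 0.65 to 1.5, limma adjusted p = 0.00958), and under aCD3 Bcl6 was 0.94 higher in GF than in SPF (SE 0.16, limma adjusted p = 0.000213). Under median of ratios scaling these differences were 0.84 and 0.56, with limma adjusted p = 0.0131 and 0.00707. Under isotype GF and SPF differed by -0.13 (SE 0.14, limma adjusted p = 0.563).

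The start of the Bcl6 transcript measured in the table is preceded by a stretch that carries several matches to TTCNNNGAA, the palindrome bound by STAT factors, through which cytokines such as interleukin 21 act on T cells. It is printed because Bcl6 is the member whose aCD3 effect differed between GF and SPF. Both strands were searched; the word is its own reverse complement. The sequence, from RefSeq on build GRCm38.p6 at chr16:23981284-23981533 (minus strand), is given 5′ to 3′ with the matches in capitals.
Bcl6: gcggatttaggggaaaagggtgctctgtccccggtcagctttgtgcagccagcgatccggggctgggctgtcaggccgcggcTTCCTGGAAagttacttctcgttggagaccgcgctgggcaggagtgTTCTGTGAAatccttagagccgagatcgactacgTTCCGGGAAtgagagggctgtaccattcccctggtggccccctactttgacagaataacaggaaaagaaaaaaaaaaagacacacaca
This stretch holds 3 matches. Of 32851 promoter stretches of the same length, 7.02% hold at least 1 match and 0.027% hold at least 3. A second Bcl6 start in the same table, at chr16:23988853-23989102 and upstream of the measured span, holds 1. A match describes these letters and is not a site of binding.

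Pou2af1 (chr9:51213690-51240079, plus strand) encodes a coactivator of octamer-binding factors that is best known in B cells and is also used by follicular helper cells. It had the lowest TPM of the 7 genes, with 0 to 100 reads per library. SPF isotype ran from 0.350 through a median of 0.808 to 1.24 TPM, SPF aCD3 from 0.517 through 1.34 to 1.99 TPM, and GF isotype from 0 through 0.320 to 0.820 TPM. The library at 0 was GF isotype M4, where 3 reads would have been worth 0.0466 TPM. GF aCD3 held 0.291 (F1), 2.31 (M1), 0.883 (M2), 0.501 (M3), 0.288 (M4) and 0.86 TPM (M5).

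The ranges of Pou2af1 overlapped in every comparison, and in none did it pass the test. The log2 difference with aCD3 was 0.28 in SPF (SE 0.20, limma adjusted p = 0.229, 95% interval -0.14 to 0.70) and 0.33 in GF (SE 0.19, limma adjusted p = 0.200). Under median of ratios scaling the SPF difference was 0.51 and passed the test (limma adjusted p = 0.0467). Between the aCD3 groups it was 0.34 lower in GF on the log2 scale (-0.34, limma adjusted p = 0.167), and -0.51 without GF aCD3 M1 (limma adjusted p = 0.0209). B and plasma cells also use this gene. The summed level of 21 of their markers was 122 to 305 TPM in SPF isotype and 19.9 to 29.9 TPM in SPF aCD3, and 37.7 to 147 TPM in GF isotype and 22.6 to 130 TPM in GF aCD3. Of the 8 markers tested, 5 fell with aCD3 in SPF, and none passed in GF. Most of that sum in SPF isotype was Jchain, an antibody-joining chain of plasma cells, at 169 ± 66.3 TPM (SD, n = 6), against 0.792 ± 0.568 TPM in SPF aCD3 (SD, n = 6). The level differed between markers. Means over the 4 groups were 8.84 to 10.1 TPM for Fcrla and 4.62 to 6.06 TPM for Cd79b, and Cd79a reached 2.22 TPM in 1 library. Ms4a1 and Pax5 reached at most 0.522 and 0.069 TPM in any library and were at 0 in 17 and 11 of the 28. Ms4a1 was at 0 in libraries of every group, but all libraries without Pax5 were GF. Pax5 had 4 to 24 reads per library in SPF isotype and 13 to 16 in SPF aCD3. It had 0 to 2 reads in GF isotype and 0 to 4 in GF aCD3. Of 12 myeloid markers, summed at 67.2 to 96.6 TPM in SPF isotype and 119 to 152 TPM in SPF aCD3, 6 were tested, of which 1 rose and 3 fell. The marker that rose was Cd68, from a mean of 5.99 to 76.5 TPM (log2 difference 3.83, limma adjusted p = 3.3e-06). C1qa and C1qb, at means of 0.131 and 0.371 TPM in SPF isotype, were at 0 in all SPF aCD3 libraries. The part of such cells in the results was not tested.

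Cxcr5 (chr9:44511787-44526444, minus strand), the receptor for the follicular chemokine CXCL13, had a lower mean in GF than in SPF under both antibodies. It stood at 2.56, 1.52, 5.68, 4.21, 4.96 and 6.03 TPM in SPF isotype and ran from 0.743 through a median of 1.26 to 2.22 TPM in the 10 GF isotype libraries. Of the GF libraries, 8 were below the whole SPF isotype range, which reached down to F2. Means were 4.16 ± 1.79 (SD, n = 6) and 1.29 ± 0.455 TPM (SD, n = 10), 3.22-fold lower in GF. The log2 difference was -1.11 (SE 0.27, limma adjusted p = 0.0142). Without SPF isotype F3 it was -1.0 and the adjusted p from limma 0.0541.

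With aCD3, Cxcr5 rose in SPF mice, to 13.0, 7.64, 7.37, 6.0, 5.79 and 5.25 TPM. The mean was 7.51 ± 2.85 TPM (SD, n = 6), 1.80-fold above SPF isotype, and 3 of the 6 libraries exceeded every SPF isotype library. The log2 difference was 0.75 (SE 0.30, limma adjusted p = 0.0296). That call rested on single libraries: the difference was 0.67 without SPF isotype F1, 0.56 without SPF isotype F2 and 0.58 without SPF aCD3 F1, with limma adjusted p = 0.0674, 0.0968 and 0.0927, and with a pseudocount of 0.1 it was 0.91 (limma adjusted p = 0.0635).

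The GF aCD3 libraries held 1.79 (F1), 4.8 (M1), 5.26 (M2), 1.35 (M3), 0.467 (M4) and 3.69 TPM (M5) of Cxcr5, with 9 reads in M4. M1, M2 and M5 lay above all GF isotype libraries and M4 below all of them. The GF difference was 0.58 (SE 0.28, limma adjusted p = 0.130); without M4 it was 0.82 (limma adjusted p = 0.0206). Under aCD3 Cxcr5 was lower in GF than in SPF by 1.28 on the log2 scale, in 5 of 6 libraries below the whole SPF range (-1.28, SE 0.31, limma adjusted p = 0.00194). The aCD3 effects of GF and SPF differed by -0.17 (95% interval -1.0 to 0.66, limma adjusted p = 0.791), an interval that covers effects in both directions.

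**Figure D2:**
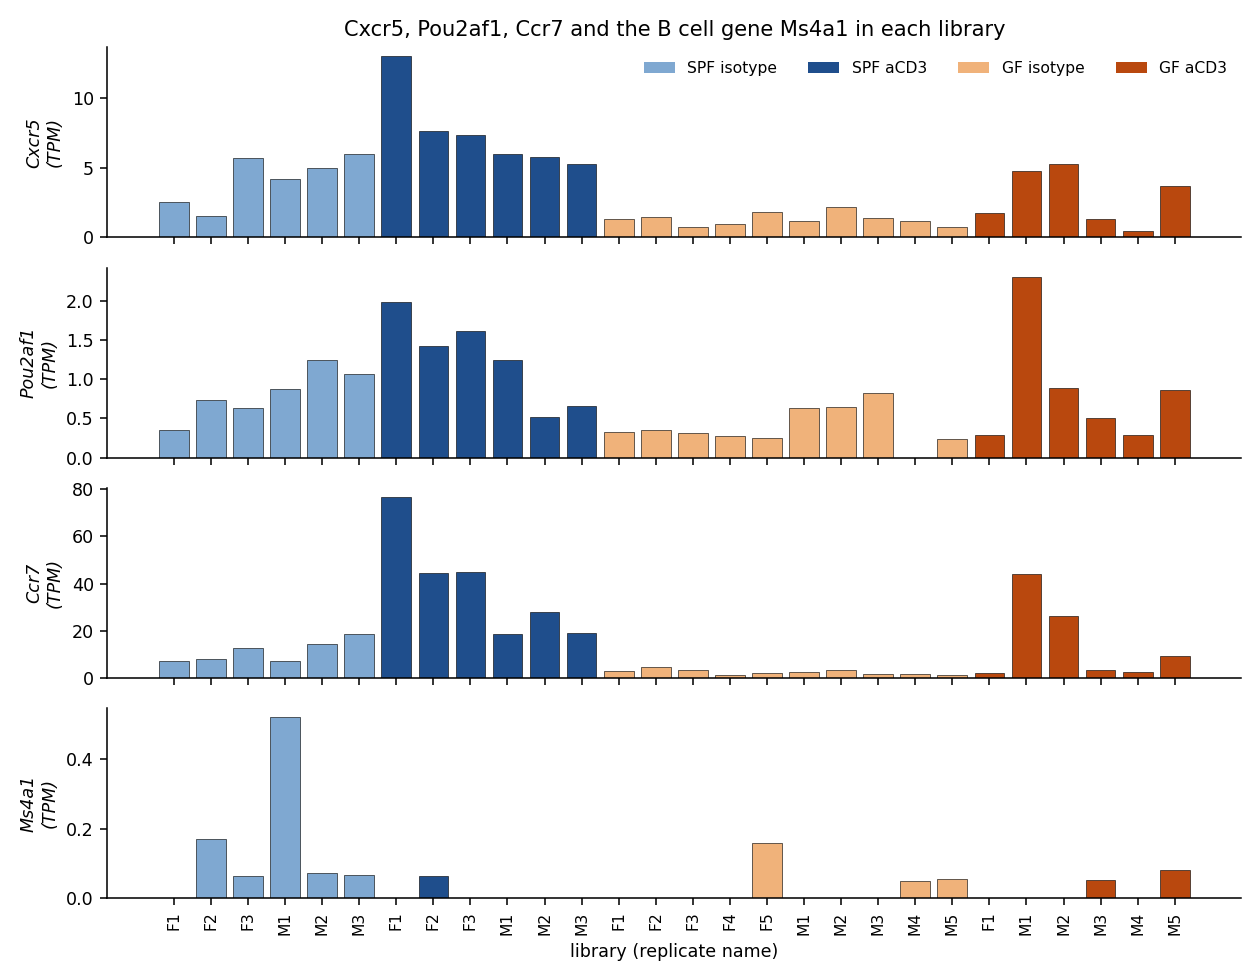
TPM (linear axes from 0) of Cxcr5, Pou2af1, the lymph node homing receptor gene Ccr7 and the B cell gene Ms4a1 in each of 28 libraries, with replicate names on the horizontal axis and bars coloured by group. Cxcr5 reaches 13.0 TPM in SPF aCD3 F1, Ccr7 reaches 76.8 TPM in the same library, and Ms4a1 stays at or below 0.522 TPM throughout.

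Il21 (chr3:37222759-37232636, minus strand), the cytokine with which follicular helper cells drive B cell division and plasma cell formation, rose most of the 7. SPF isotype libraries held 29.4, 33.7, 29.7, 13.5, 17.3 and 20.5 TPM, and SPF aCD3 libraries held 89.7, 104, 102, 62.5, 56.6 and 61.2 TPM. The groups did not overlap. Means were 24 ± 8.02 (SD, n = 6) and 79.4 ± 21.8 TPM (SD, n = 6), a 3.31-fold higher level after aCD3. The log2 difference was 1.71 (SE 0.37, limma adjusted p = 0.000343).

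In GF mice the libraries were widely spread in Il21. GF isotype ran from 13.1 through a median of 52.1 to 61.5 TPM (mean 43.4 ± 19.3, SD, n = 10), and GF aCD3 held 31.2 (F1), 130 (M1), 108 (M2), 53.7 (M3), 50.4 (M4) and 83.8 TPM (M5). M1, M2 and M5 exceeded every GF isotype library, and the other 3 lay inside the isotype range. The GF difference was 0.79 (SE 0.34, limma adjusted p = 0.104). Without F1, the only female library of GF aCD3, it was 1.10 (limma adjusted p = 0.0257). In a fit of the GF libraries alone, an alternative chosen after seeing the data, it was 0.55 (SE 0.36, limma adjusted p = 0.343). The aCD3 effects of GF and SPF differed by -0.91 (95% interval -1.96 to 0.13, limma adjusted p = 0.207). Between GF and SPF the differences were 0.73 under isotype (limma adjusted p = 0.174) and -0.19 under aCD3 (limma adjusted p = 0.695).

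The stretch upstream of Il21 is printed because Il21 was the member that rose most under engagement of CD3, a signal that reaches the nucleus in part through NFAT factors. The core word of NFAT sites, GGAAA, was searched on both strands, so that it also appears as TTTCC. The sequence, from RefSeq on build GRCm38.p6 at chr3:37232637-37232886 (minus strand), is given 5′ to 3′ with the matches in capitals.
Il21: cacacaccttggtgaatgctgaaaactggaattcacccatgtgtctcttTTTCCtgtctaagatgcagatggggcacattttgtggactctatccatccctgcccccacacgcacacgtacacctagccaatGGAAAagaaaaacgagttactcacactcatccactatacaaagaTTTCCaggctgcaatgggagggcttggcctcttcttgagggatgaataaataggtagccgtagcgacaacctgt
It holds 3 matches. The word is short and common: 55.6% of the 32851 promoter stretches hold at least 1 match and 6.39% hold at least 3. As for Bcl6, a match describes these letters and is not a site of binding, and a part of NFAT in the rise was not tested. The sequence table had entries for 3 of the 7 genes, Il21, Bcl6 and Pou2af1. Cd40lg, which fell furthest, had none and could not be searched.

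Cd40lg (chrX:57212143-57224042, plus strand), the surface ligand that engages CD40 on B cells, fell furthest. SPF isotype libraries held 210, 268, 163, 229, 226 and 236 TPM, and SPF aCD3 libraries held 30.6, 31.7, 33.3, 28.6, 27.1 and 24.2 TPM. The highest SPF aCD3 library was far below the lowest SPF isotype library. Means were 222 ± 34.6 (SD, n = 6) and 29.2 ± 3.29 TPM (SD, n = 6), 7.60-fold lower after aCD3. The log2 difference was -2.88 (SE 0.37, limma adjusted p = 2.59e-06), the 25th lowest of the 12182 genes.

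In GF mice Cd40lg lay at separate levels after aCD3. GF isotype ran from 218 through a median of 241 to 302 TPM (mean 247 ± 28.2, SD, n = 10). GF aCD3 held 266 (F1), 45.6 (M1), 39.3 (M2), 212 (M3), 282 (M4) and 36.4 TPM (M5). F1 and M4 lay inside the isotype range, M3 just under it, and M1, M2 and M5 just above the SPF aCD3 libraries. The GF difference of -1.18 (SE 0.34, 95% interval -1.88 to -0.47) passed the test narrowly (limma adjusted p = 0.0484). It did not pass in a fit of the GF libraries alone (-1.10, limma adjusted p = 0.249), an alternative chosen after seeing the data. Without M1, M2 and M5 it was -0.97, -0.93 and -0.91, with limma adjusted p = 0.162, 0.177 and 0.179. Leaving out any single SPF or GF isotype library also took the call away, with limma adjusted p from 0.0506 to 0.083.

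Within the GF libraries numbered 25 to 33 (6 isotype, 3 aCD3) the aCD3 difference in Cd40lg was -1.59, and within those numbered 48 to 54 (4 isotype, 3 aCD3) it was -0.85, with limma adjusted p = 0.319 and 0.734. Under aCD3 all 6 GF libraries were above all 6 SPF libraries, with group means 1.86 apart on the log2 scale (SE 0.38, limma adjusted p = 0.000748). The fit shares 1 estimate of the spread over all groups. The SD of Cd40lg was 119 TPM in GF aCD3 against 3.29 TPM in SPF aCD3, an inequality that this SE and p-value do not reflect. The aCD3 effects of GF and SPF differed by 1.70 (SE 0.50, 95% interval 0.66 to 2.74, limma adjusted p = 0.0542), and by 1.46 under median of ratios scaling (limma adjusted p = 0.033). Under isotype GF and SPF differed by 0.16 (SE 0.33, limma adjusted p = 0.781).

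Il21 and Cd40lg, both signals that a T cell gives to a B cell, were the members that rose most and fell furthest in SPF. Since neither overlapped between the SPF groups and they moved in opposite directions, their ratio could not overlap there either. Each TPM is per genomic span, so the ratio is compared between libraries only. The ratio of Il21 to Cd40lg TPM was 0.059 to 0.182 in SPF isotype, with a median of 0.106, and 2.09 to 3.28 in SPF aCD3, with a median of 2.73. In GF isotype it was 0.055 to 0.281, with a median of 0.199. In GF aCD3 it was 0.117 (F1), 2.85 (M1), 2.75 (M2), 0.253 (M3), 0.179 (M4) and 2.30 (M5). M1, M2 and M5 therefore lay within the SPF aCD3 range and F1, M3 and M4 within the GF isotype range.

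**Figure D3:**
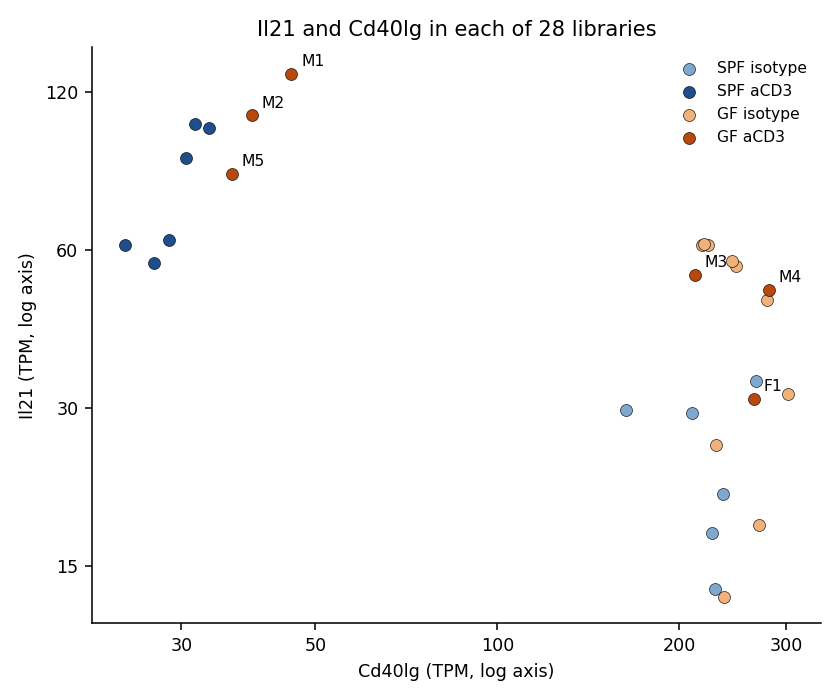
Il21 against Cd40lg, both in TPM on log axes, for each of 28 libraries coloured by group; the GF aCD3 libraries carry their replicate names. GF aCD3 M1, M2 and M5 lie at 36.4 to 45.6 TPM of Cd40lg next to the SPF aCD3 libraries, and F1, M3 and M4 lie at 212 to 282 TPM among the isotype libraries.

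Icos (chr1:60977914-61000321, plus strand), the costimulatory receptor that holds follicular helper cells in contact with B cells, had the closest group means in proportion, 163 to 219 TPM. SPF isotype ran from 130 through a median of 168 to 198 TPM (mean 166 ± 28.4, SD, n = 6), and SPF aCD3 from 206 through 216 to 249 TPM (mean 219 ± 16.4, SD, n = 6). The groups did not overlap, and the mean was 1.32-fold higher after aCD3. The log2 difference was 0.42 (SE 0.11, limma adjusted p = 0.00213), or 0.83 under median of ratios scaling (limma adjusted p = 8.16e-07).

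Icos in GF isotype ran from 141 through 158 to 195 TPM, inside the SPF isotype range (difference -0.01, SE 0.10, limma adjusted p = 0.944). GF aCD3 held 152 (F1), 139 (M1), 154 (M2), 210.4 (M3), 197 (M4) and 193 TPM (M5). The high libraries here were M3, M4 and M5, where those of Il21 were M1, M2 and M5. The GF difference was 0.09 (SE 0.10, limma adjusted p = 0.559), and under aCD3 Icos was 0.35 lower in GF than in SPF on the log2 scale (-0.35, SE 0.11, limma adjusted p = 0.0141). Without GF aCD3 F1 that difference was -0.29 (limma adjusted p = 0.058). The aCD3 effects differed by -0.33 (limma adjusted p = 0.134), and by -0.58 under median of ratios scaling (limma adjusted p = 0.0134).

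Sh2d1a (chrX:42502565-42522095, plus strand) encodes SAP, the adaptor through which SLAM family receptors signal in stable T cell to B cell contacts. SPF isotype held 15.1, 19.0, 12.2, 16.9, 15.8 and 14.4 TPM and SPF aCD3 10.1, 8.88, 7.61, 13.9, 12.6 and 11.6 TPM. Of the 6 aCD3 libraries, 4 were below every isotype library. The mean went from 15.6 ± 2.31 to 10.8 ± 2.37 TPM (SD, n = 6 each), 1.44-fold lower, with a log2 difference of -0.50 (SE 0.15, limma adjusted p = 0.00573). Under median of ratios scaling it was -0.12 and did not pass (limma adjusted p = 0.411).

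Sh2d1a in GF isotype ran from 15.1 through 19.0 to 20.8 TPM, and GF aCD3 held 16.4 (F1), 19.0 (M1), 11.9 (M2), 19.9 (M3), 20.1 (M4) and 9.71 TPM (M5). M2 and M5 were below all GF isotype libraries, while M1 was inside their range. The GF difference was -0.23 (SE 0.14, limma adjusted p = 0.230). Under aCD3 Sh2d1a was 0.49 higher in GF than in SPF (SE 0.16, limma adjusted p = 0.0109), but 0.11 under median of ratios scaling (limma adjusted p = 0.495). The aCD3 effects differed by 0.27 (limma adjusted p = 0.363).

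**Figure D4:**
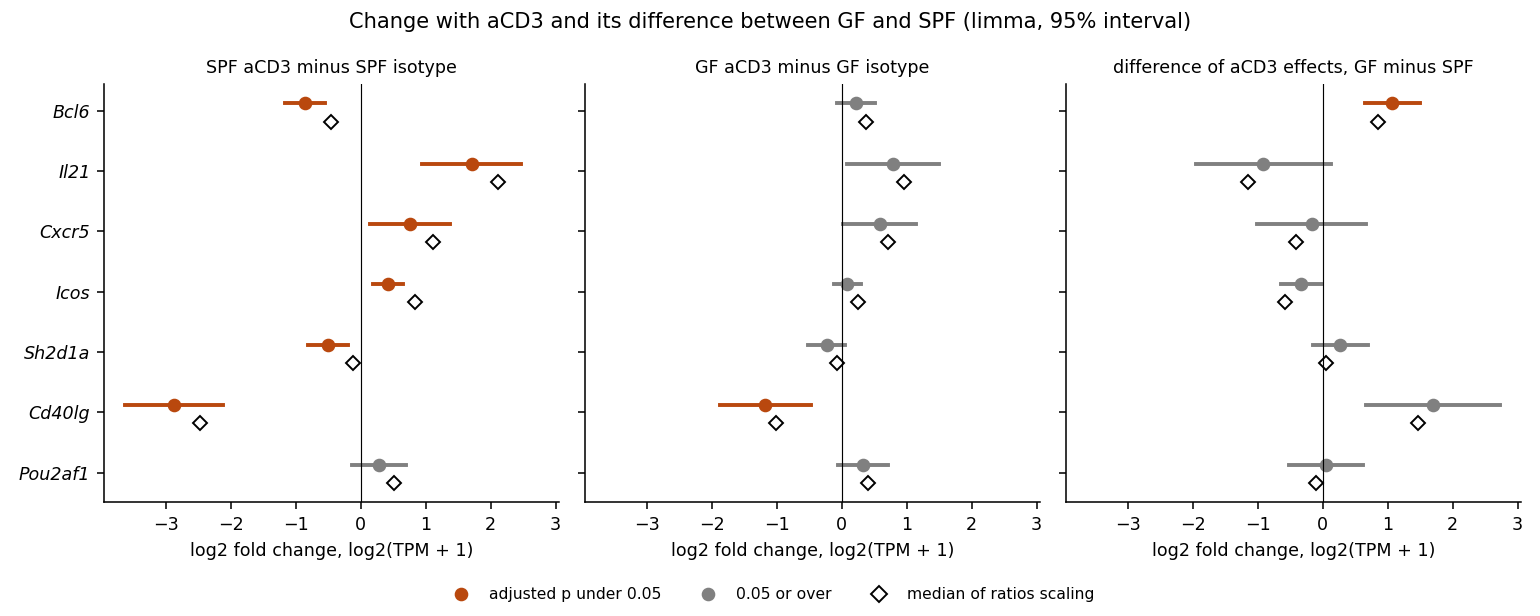
Log2 fold change on the log2(TPM + 1) scale for each of the 7 genes in SPF, in GF and for the difference of the GF and SPF effects; circles are limma estimates with 95% intervals, orange where the adjusted p is under 0.05, and open diamonds are the estimates after median of ratios scaling. Cd40lg at -2.88 and Il21 at 1.71 are the extremes in SPF, and Bcl6 at 1.07 is the member whose difference of effects passed the test.

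Between SPF aCD3 and SPF isotype 3 of the 7 genes were thus higher and 3 lower. The members' median log2 difference was 0.28 and that of all genes was -0.35. Median of ratios scaling, which removes a shift shared by most genes, moved the median of all genes to -0.01 and that of the members to 0.51, and the calls over all genes to 30.2% higher and 29.8% lower, with 4 members higher and 2 lower. The groups did not overlap for Bcl6, Il21, Icos and Cd40lg, 4 of 7, against 41.9% of all genes. Most genes tested changed in this comparison, so the members' share is to be read beside that background.

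Between GF aCD3 and GF isotype the members' median was 0.22 and that of all genes -0.15. Calls over all genes were 300 higher and 562 lower, and 685 and 490 under median of ratios scaling. The groups overlapped for all 7, and 0.0657% of all genes did not overlap. Between GF isotype and SPF isotype 1 of 7 passed, Cxcr5, against 7.17% of all genes and 0.755% in the lower direction (medians -0.01 and 0.15). Calls over all genes were 782 higher and 92 lower, and 63 and 141 under that scaling. The groups overlapped for all 7 members here too, where 2.63% of all genes did not. Between GF aCD3 and SPF aCD3 5 of 7 passed, Bcl6, Cd40lg and Sh2d1a higher and Cxcr5 and Icos lower, against 53.3% of all genes, 48.9% higher and 4.46% lower (medians -0.19 and 0.34). Under that scaling 2 members were higher and 2 lower (median -0.52), against 16% of all genes higher and 16.7% lower. Cd40lg alone of the 7 did not overlap, against 13% of all genes. For the difference of aCD3 effects 1 of 7 passed, Bcl6, against 3.48% of all genes, 2.44% in the higher direction (medians 0.05 and 0.20). Under that scaling 2 members were higher and 1 lower, against 646 genes higher and 736 lower. These comparisons share libraries and are not independent of one another.

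Other genes of the follicular helper pathway were followed in 4 lists, of regulators that promote the fate, regulators that oppose it, surface and signalling molecules, and the cytokine axis, 59 genes of which 58 were tested. In SPF, 15 rose and 27 fell after aCD3 (median -0.30), where 14.2% of all genes tested rose and 50.7% fell. With median of ratios scaling 22 rose and 16 fell (median 0.09), against 30.2% and 29.8% of all genes. Among promoting regulators 4 of 14 rose and 5 fell, among opposing regulators 3 of 15 rose and 8 fell, among surface and signalling genes 7 of 19 rose and 9 fell, and in the cytokine axis 1 of 10 rose and 5 fell.

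The highest changes of these lists in SPF were in Tnfrsf4, Ccr7 and Cxcr4. Tnfrsf4, the costimulatory receptor OX40, rose from 66.9 ± 8.81 to 416 ± 53.7 TPM (SD, n = 6 each; log2 difference 2.62, limma adjusted p = 6.25e-06). Ccr7, a receptor that draws T cells to the T zone and counts among the opposing genes, rose by 1.59 (limma adjusted p = 0.00855), and Cxcr4, a receptor for CXCL12, by 1.48 (limma adjusted p = 0.00316). The lowest were Tcf7, which encodes a factor that acts upstream of Bcl6, at -1.58 (68.2 ± 6.41 to 24.9 ± 15.1 TPM, SD, n = 6 each; limma adjusted p = 0.000352), Pik3r1, a regulatory subunit of the kinase downstream of Icos, at -1.56 (limma adjusted p = 2.29e-05), and the SLAM family receptor Cd84 at -1.29 (limma adjusted p = 3.94e-06). Tcf7, Pik3r1 and Cd84 were lower under median of ratios scaling as well, at -1.18, -1.15 and -0.91.

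In GF, 2 of the 58 pathway genes rose and 2 fell with aCD3 (median -0.16), where 2.46% of all genes tested rose and 4.61% fell. Ccr7 rose by 1.51 (limma adjusted p = 0.0499) and Pdcd1, the inhibitory receptor PD-1 that is high on follicular helper cells, by 0.79 (15 ± 3.29, n = 10, to 26.7 ± 9.05 TPM, n = 6; limma adjusted p = 0.0481). Gpr183, a migration receptor that Bcl6 is known to repress, fell by 0.70 and the SLAM family receptor Ly9 fell by 0.41, both with limma adjusted p = 0.0481. Like that of Cd40lg, these adjusted p-values lay close to the threshold, and a fit of the GF libraries alone called 0 of 12182 genes, 2420 of them with an unadjusted p under 0.05; voom on the recovered reads called 942.

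**Figure D5:**
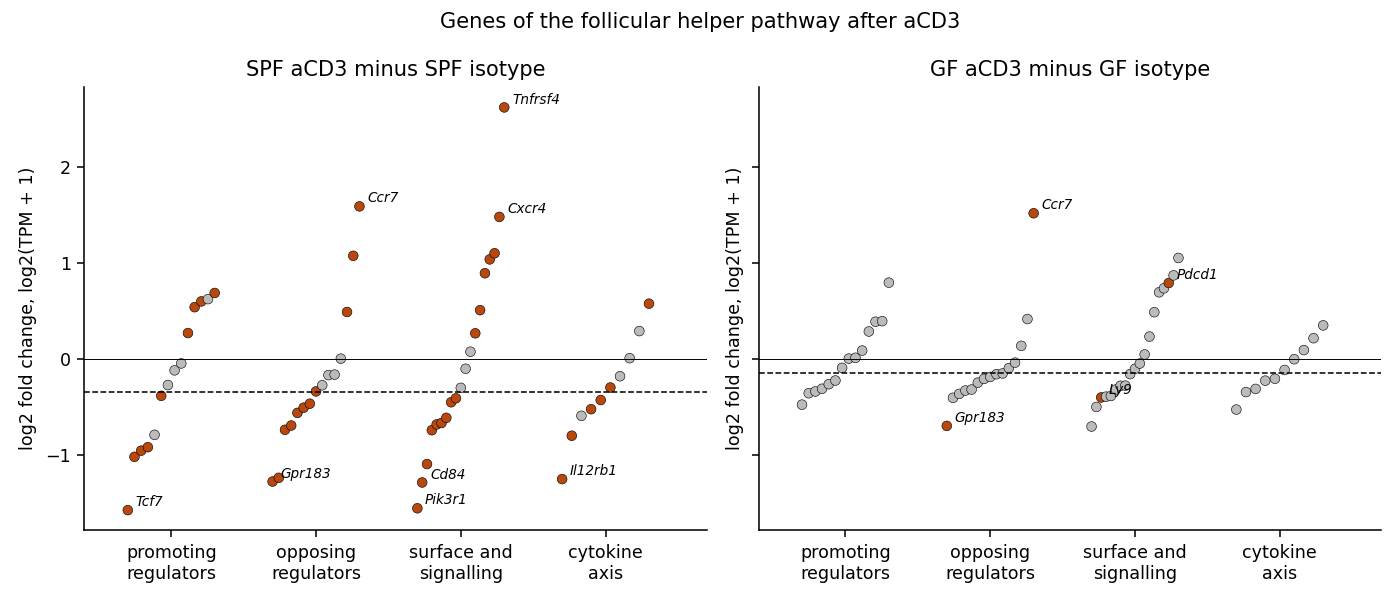
Log2 fold change on the log2(TPM + 1) scale with aCD3 for the 58 tested genes of the 4 pathway lists, sorted within each list, in SPF (left) and GF (right); orange points have a limma adjusted p under 0.05, grey points do not, and the dashed line is the median of all 12182 genes (-0.35 in SPF and -0.15 in GF). In SPF 15 genes are called higher and 27 lower, with Tnfrsf4 at 2.62 and Tcf7 at -1.58, and in GF 2 are called higher and 2 lower. Of all genes tested, 14.2% are called higher and 50.7% lower in SPF, and 2.46% and 4.61% in GF.

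Between the isotype groups, 4 of the 58 pathway genes were higher and 2 lower in GF, and 2 higher and 4 lower under median of ratios scaling. Of all genes tested, 6.42% were higher and 0.755% lower, and 0.517% and 1.16% under that scaling. Ccr7 was lower beside Cxcr5, at 2.45 ± 1.18 TPM (SD, n = 10) against 11.3 ± 4.56 TPM in SPF (SD, n = 6; log2 difference -1.83, limma adjusted p = 0.0178), as was Klf2, a factor that keeps T cells recirculating, by 1.29 (-1.29, limma adjusted p = 0.0298). Il2rb, a receptor chain for interleukin 2, Pdcd1 and Id2, an inhibitor of E proteins, were higher by 0.60, 0.58 and 0.46, with limma adjusted p = 0.00481, 0.0399 and 0.00501; Pdcd1 was 0.43 under that scaling and did not pass (limma adjusted p = 0.384). Between the aCD3 groups 27 were higher and 8 lower in GF, but 11 higher and 20 lower under that scaling. Of all genes tested, 48.9% were higher and 4.46% lower, and 16% and 16.7% under that scaling. The balance of directions thus depends on the scaling. Named by size were Tox, a nuclear factor that promotes the fate, at 1.31, the cytokine Il4 at 1.08 and Pik3r1 at 1.07, and Ccr7 at -1.90, Cxcr4 at -1.59 and Klf2 at -1.38. Of these 6, Il4 did not pass under that scaling (0.81, limma adjusted p = 0.109). Of the 58, 2 had aCD3 effects that differed between GF and SPF, against 3.48% of all genes tested. They were the kinase gene Fyn (0.82, limma adjusted p = 0.0493) and Tox (0.93, limma adjusted p = 0.0396). Under median of ratios scaling 9 of the 58 did, 5 higher, Fyn and Tox among them, and 4 lower, against 11.3% of all genes.

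The deposited TPM is per base of genomic span, introns included, so the orders that follow rank these values and not the abundance of the mature transcripts. In SPF isotype the order of mean TPM was Cd40lg, Icos, Bcl6, Il21, Sh2d1a, Cxcr5, Pou2af1, with library ranges that overlapped between Cd40lg and Icos, between Bcl6 and Il21 and between Il21 and Sh2d1a. In SPF aCD3 it was Icos, Il21, Cd40lg, Bcl6, Sh2d1a, Cxcr5, Pou2af1, with overlaps between Bcl6 and Sh2d1a and between Sh2d1a and Cxcr5. In GF isotype it was Cd40lg, Icos, Il21, Bcl6, Sh2d1a, Cxcr5, Pou2af1, with overlaps between Il21 and Bcl6, between Bcl6 and Sh2d1a and between Cxcr5 and Pou2af1. In GF aCD3 every neighbour in the order Icos, Cd40lg, Il21, Bcl6, Sh2d1a, Cxcr5, Pou2af1 overlapped except Sh2d1a and Cxcr5.

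The likeness of profiles was measured as the mean absolute difference of z-scored log2(TPM + 1) over the 28 libraries, among 7479 other genes, and is a description with no test. Cd40lg had the closest neighbours, Jade2 and Lpar6, both at 0.103. Lpar6 went from 349 TPM in SPF isotype to 54.7 in SPF aCD3 and from 401 in GF isotype to 219 in GF aCD3. Il21 was closest to Endod1 (0.306) and Syt11 (0.363), Sh2d1a to Inpp1 (0.304) and Fbxo25 (0.305), Bcl6 to Sesn3 (0.387) and Cep170 (0.419), and Icos to Morrbid (0.448) and Hk2 (0.498).

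Cxcr5 and Pou2af1 shared both of their closest genes, Ccr7 (0.306 and 0.417) and the ribosomal protein gene Rps19 (0.458 and 0.491). Ccr7 in GF aCD3 was 2.24 (F1), 43.9 (M1), 26.4 (M2), 3.28 (M3), 2.38 (M4) and 9.39 TPM (M5), high in the libraries that were high in Cxcr5. Among the members themselves, Cxcr5 and Pou2af1 were the closest pair (0.488), then Sh2d1a and Cd40lg (0.514) and Bcl6 and Cd40lg (0.529). Cxcr5 and Cd40lg were the farthest (1.65). All these points share libraries, depth and the group structure.

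Sex was a term of the fit, and 0 of 7 members passed its test over all 28 libraries, against 0.107% of all genes (13 genes); the smallest unadjusted p of the 7 was 0.25, for Cd40lg. Il21 was looked at within SPF after its values had been seen. Its 3 male libraries were below its 3 female libraries under isotype (13.5 to 20.5 against 29.4 to 33.7 TPM) and under aCD3 (56.6 to 62.5 against 89.7 to 104 TPM). In a fit of the SPF libraries the male minus female difference was -0.77 (SE 0.09, limma adjusted p = 0.00571), 1 of 14 genes called (0.115% of those tested). In GF it was 0.78 (SE 0.36, limma adjusted p = 0.726), and the difference of the sex effects, 1.54 (95% interval 0.67 to 2.41), had a limma adjusted p of 0.289. In the SPF column names the sexes follow each other in blocks of sample numbers (1 to 3 and 7 to 9 female, 4 to 6 and 10 to 12 male).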

How the data were processed

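The deposited table holds TPM for 25124 genes, which the authors computed with HOMER's analyzeRepeats.pl over RefSeq genes of mm10 with transcripts condensed per gene, per the file headers. The aligner's version, strand use and filters are not given in the sources used here; without strand, reads of overlapping antisense genes cannot be told apart. TPM was divided by a length that equals the genomic span, introns included, in 99.27% of rows. Another 26 columns match no sample and were not used. Within a library, TPM times length was a whole multiple of 1 step in 100.0% of low values (within 0.1), which gave back reads; 6765532 to 17860615 lay in genes. Intervals and floors from them cover counting error only. Groups and sexes came from the labels.

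Genes with at least 1 TPM in at least 6 libraries were tested with limma 3.58.1 (R 4.3.3) on log2(TPM + 1), pseudocount 1, with group means and sex over 28 libraries, a trended prior and a two-sided test with Benjamini-Hochberg adjustment. This scale understates the change of low genes. The fit was tried on simulated data in which 200 genes changed by 1 on the log2 scale, up and down alike. For SPF aCD3 against SPF isotype it recovered 91% of them and called 14 unchanged genes. The simulation had no shift shared by most genes and no split within a group, so it does not cover those features of the data. Alternatives were pseudocounts 0.1 and 5, no filter or 5 TPM, median of ratios scaling, voom on the recovered reads, a replicate block, a covariate for the sample-number range and leaving out each of 28 libraries; fits within SPF and within GF were added after seeing the data. Pathway genes were named by rule: the 3 highest and 3 lowest log2 changes past the threshold per comparison. Similar profiles were sought among tested genes with a mean of at least 5 TPM. The members and lists were chosen with earlier results of these data known. Tables and plots used Python 3.11.15, pandas 2.3.3 and Matplotlib 3.10.9.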

Additional observations from a re-analysis of the deposited data

Results flagged for a closer look

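Cxcr5 in SPF aCD3 F1 was 13.0 TPM, set apart from the other 5 libraries of its group, which lay between 5.25 and 7.64 TPM. Pou2af1 in GF aCD3 M1 was 2.31 TPM, against 0.288 to 0.883 TPM in the other 5 libraries. Of 28 sets of values checked in this way, 2 held a library far from the rest, where chance gives about 1.4 (1 in 20). The aCD3 effect on Bcl6 differed between GF and SPF by 1.07 on the log2 scale (95% interval 0.65 to 1.5, limma adjusted p = 0.00958).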

How the results depend on the processing

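Over all alternatives, 1198 single-gene values kept their direction and their side of the threshold, 40 lost the call, 14 gained one and 17 changed sign, all 17 in differences that passed no test. The Bcl6 effects in SPF, under aCD3 and for the difference of effects, the Il21, Icos and Cd40lg effects in SPF, and the Cxcr5 and Cd40lg differences between aCD3 groups held their calls under all of them. No alternative let the spread differ between the groups in a comparison of GF with SPF. For the difference of aCD3 effects, 2 members were called with a pseudocount of 0.1 and with the filter of 5 TPM, 3 with median of ratios scaling and with voom, and 1 to 2 when leaving out a library. For GF aCD3 against GF isotype the count was 0 with a pseudocount of 0.1, without a filter, with the replicate block and in GF libraries alone, and 0 to 2 when leaving out a library, 2 without GF aCD3 F1 or M4. That count was also 0 without any single SPF or GF isotype library. For GF isotype against SPF isotype it was 0 with the replicate block and 0 to 1 when leaving out a library. It ranged from 5 to 6 in SPF and from 4 to 6 between the aCD3 groups. Sign changes were as follows. The Cxcr5 difference of effects ranged from -0.33 to 0.07, being 0.05 without SPF isotype F2 and 0.07 without GF aCD3 M4. That of Pou2af1 was -0.10 with scaling and -0.12 to 0.16 when leaving out a library (-0.00 without SPF isotype M2, -0.09 and -0.05 without SPF aCD3 M2 and M3, -0.02 without GF isotype M4, -0.12 without GF aCD3 M1). The Il21 difference between aCD3 groups was 0.04 with the sample-number covariate and 0.12 without GF aCD3 F1 (-0.36 to 0.12). Between isotype groups, Cd40lg was -0.00 with scaling and with voom and -0.03 with the covariate, and Icos -0.08 to 0.04 (0.04, 0.03 and 0.02 without SPF isotype F2, M2 and M3, 0.01 without GF isotype M5). The cause was not tested.

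Over all genes, the GF aCD3 comparison called 862 genes, 0 with a pseudocount of 0.1, no filter or the replicate block, and 2215 with the covariate; 4351 had an unadjusted p under 0.05, and 4339, 4963 and 4146 where 0 were called. Calls between isotype groups were 874, against 204 with scaling and 225 with voom. Between aCD3 groups they were 6496, against 3988 with scaling. For the difference of effects they were 424, against 774 with a pseudocount of 0.1, 273 with 5, 233 without a filter, 162 with the replicate block, 1382 with scaling and 1824 with voom. The labels do not say whether shared replicate names pair the libraries. Deviations of same-named libraries correlated between -0.208 and 0.198, which does not settle it. With the replicate block the Cxcr5 difference between isotype groups was -1.02 (limma adjusted p = 0.0533) and the Cd40lg difference in GF -1.21 (limma adjusted p = 0.0643); no other member's call changed. Depth limits Pou2af1, at 0 to 100 reads per library, and Cxcr5 in GF aCD3 M4.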
